A study of Homo sapiens with 6 samples.

Results

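RAB proteins are small GTPases of membrane traffic, and their mRNAs were followed here in cells in which the long noncoding RNA FAM83H-AS1 had been silenced. Every row of the deposited table that carries the type mRNA and a symbol made of RAB, a number and at most 1 letter was taken as a RAB gene. This gave 60 genes out of 40173 rows, of which 19756 are of type mRNA. Counts of 48 RAB genes were high enough for a test and 12 were not.

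The study sequenced 6 RNA-Seq libraries from cells labelled A549, an established human lung adenocarcinoma line. In 3 libraries the cells had received a negative control siRNA, and in the other 3 an siRNA against FAM83H-AS1, and RNA was taken a day after transfection. Both groups are the same line with the same handling, and nothing in the labels tells whether the 3 libraries of a group came from separate cultures, so that the tests measure the spread between these libraries, which may be technical. The paper describes more than 1 siRNA against this RNA and does not tell which one was sequenced.

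The level of FAM83H-AS1 in control libraries was 15.9 ± 1.39 CPM (SD, n = 3), and silencing left 4.87 ± 0.617 CPM, which is 30.6% of the control level (log2 fold change -1.70, edgeR, adjusted p = 7.99e-05). CPM are counts scaled to a common library size after TMM normalization (counts per 1000000 counts). The libraries held 9738291 to 17742643 counts. RNA5-8SP6, a pseudogene of ribosomal RNA, took 3.22% of control replicate 3, the deepest library, and at most 0.448% of any other. Of the markers listed for lung adenocarcinoma epithelium, KRT7, KRT8 and KRT18 had control means between 1316 and 1863 CPM, and AKR1C1 and AKR1C2 had 96.3 and 19.2 CPM. KRT19, EPCAM and AKR1B10 had only 0.944, 3.86 and 0.843 CPM. Of these 8 markers, 3 passed an adjusted p under 0.05 by edgeR (37.5%, beside 17.0% of all genes). After silencing 2 were lower (KRT7 and KRT18, log2 fold changes -0.57 and -0.43, adjusted p = 0.00116 and 0.00266) and 1 was higher (AKR1B10, log2 fold change 1.31, adjusted p = 0.0135). The part of this in the RAB results was not tested. Genes looked up after their values had been seen went against the label: CDKN2A, which A549 is known to have lost from its genome, had 521 to 955 counts in every library, and ALDH1A1, an abundant mRNA of A549, had 0 counts in 5 libraries and 2 in the other. The cells are therefore called by their label only. The summed markers of leukocytes were at most 2.30 CPM, of endothelium at most 6.39 CPM and of alveolar type II cells at most 1.46 CPM in any library. Those of fibroblasts reached 37.8 CPM, nearly all of it COL1A1. In bulk RNA, fewer cells that express a gene and less of its RNA per cell cannot be told apart.

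A RAB protein is a switch: bound to GTP it sits on the surface of one kind of membrane and recruits effectors that move, tether or fuse vesicles, and bound to GDP it can be pulled off again. Exchange factors turn it on and GTPase-activating proteins turn it off. Escort proteins present new RABs to the enzyme that adds their lipid anchors, and GDP dissociation inhibitors (GDI) carry them between membranes. Because each RAB marks its own compartment, the genes are described by route: secretory (between ER and Golgi, or from the Golgi to the surface), recycling (from endosomes back to the surface), and endocytic (early endosomes, or late endosomes and lysosomes).

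Silencing changed 11 of the 48 tested RAB mRNAs at an adjusted p under 0.05: RAB14, RAB40B, RAB8B and RAB7A fell, and RAB5A, RAB10, RAB30, RAB9A, RAB21, RAB32 and RAB13 rose. That is 22.9% of them, where the same rule called 17.0% of all 15250 genes tested, or 19.0% of those of type mRNA. With the table restricted to that type before the fit, the shares were 22.9% and 23.3%, and with 1 library left out the RAB share was below that of all genes in 4 of 6 cases. Taken by direction, 4 RAB mRNAs were lower and 7 higher, beside 8.27% and 8.75% of all genes and, for lower ones, 9.12% of those of type mRNA. None of the 48 changed more than 2-fold at this threshold, as 2.14% of all genes did. The edgeR count of RAB mRNAs was 17 at an unadjusted p under 0.05, with 0 of them past 2-fold. The share of all genes at that unadjusted threshold was not counted, so that 17 cannot be read as many or few. DESeq2 called 10 RAB mRNAs (20.8%, beside 15.9% of all genes), also 0 past 2-fold. The log2 fold changes ran from -0.86 to 0.43 with a median of 0.04, and the median of all genes was -0.00. The groups did not overlap for 21 of the 48, with 8 lower and 13 higher after silencing, and 36.6% of all genes had groups that did not overlap.

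**Figure D1:**
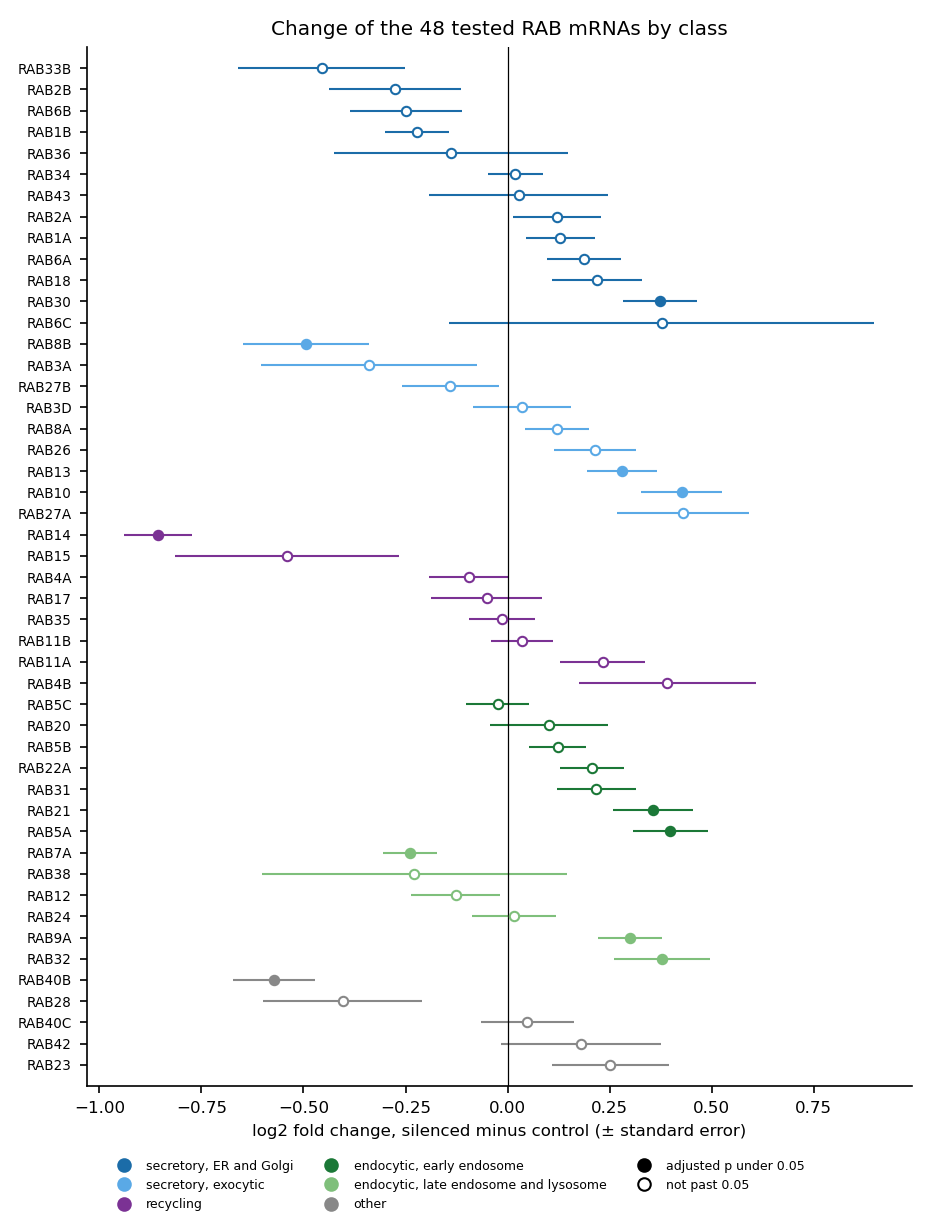
Log2 fold change (silenced minus control, with its standard error as a horizontal line) of the 48 tested RAB mRNAs, grouped by the route of their protein and ordered by size within it. Filled points passed an adjusted p under 0.05. RAB14 lies farthest to the left at -0.86, and 6 of the 7 early endosome genes lie above 0.

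The RAB mRNAs as a whole took the same share of the transcriptome in both groups within their spread. Their summed level was between 2400 and 2506 CPM in the control libraries and between 2458 and 2527 CPM in the silenced ones. Divided by the length of the principal transcript, control levels covered a wide range, and the highest were RAB1B with 173 ± 15.5, RAB7A with 116 ± 1.81 and RAB5C with 95.1 ± 7.77 CPM per kilobase. These proteins act at the exit from the ER, at late endosomes and at early endosomes. Of the RAB5C transcript, 31.7% is shared with AC099811.2, another gene annotated on the same strand. RAB14 ranked 15 of 60 with 18.3 ± 0.615 CPM per kilobase. It stood between RAB10 (19.3 ± 0.271) and RAB5A (17.1 ± 1.76), and its gap to RAB5A was smaller than the SD of the latter. RAB8B ranked 42 with 1.65 ± 0.102 CPM per kilobase, far below RAB8A at 39.9 ± 2.35.

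**Figure D2:**
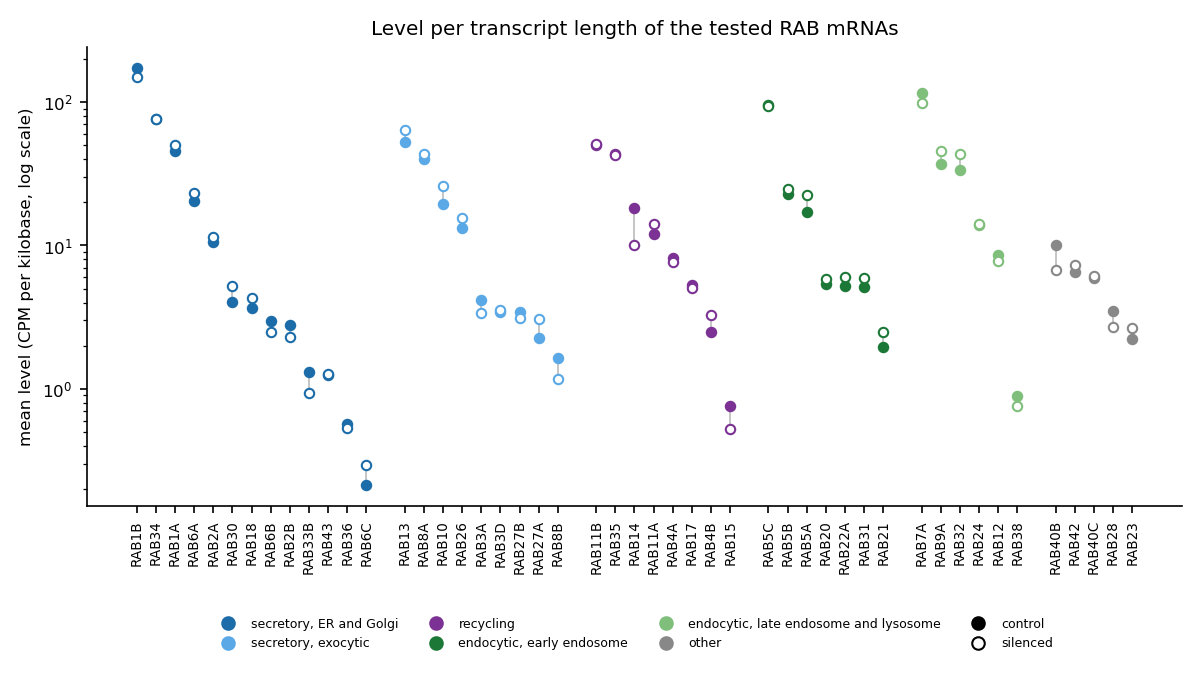
Mean level of each tested RAB mRNA in CPM per kilobase of transcript on a log scale, with control libraries as filled and silenced libraries as open circles (n = 3 each), arranged by route. RAB1B is highest at 173 CPM per kilobase in the control cells, and the gap between the 2 circles is widest for RAB14.

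The recycling RABs carry receptors and lipids from endosomes back to the cell surface, and RAB14 does this between endosomes and the trans-Golgi network. Of 8 tested genes of this route, RAB14 was called (12.5%, beside 17.0% of all genes). It had 77.0, 77.5 and 72.8 CPM in the control libraries and 38.2, 41.7 and 45.3 CPM in the silenced ones. Every silenced library lay well below every control library, and the mean went from 75.8 ± 2.55 to 41.7 ± 3.58 CPM (log2 fold change -0.86, SE 0.083, edgeR, adjusted p = 1.54e-04). The gene is at chr9:121178137-121223014 of GRCh38 on the minus strand, and none of its principal transcript is shared with another annotated gene over 100 bases. HNRNPK is the RNA-binding protein with which FAM83H-AS1 was recovered by the authors. The 3′-UTR of RAB14, of 3259 bases, holds 1 copy of the 7-base word CCAATAA, and its 5′-UTR of 238 bases holds 1 core of the HNRNPK sequence. Both are shown with the match in capitals, as they bear on the comparison of sequences given further on:
RAB14 3′-UTR, chr9:121180975-121180981, minus strand: gtctgttgtaaCCAATAAgtttattgctg
RAB14 5′-UTR, chr9:121201651-121201656, minus strand: aagctgcccagCCACCAgcaacccccca

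The other recycling RABs did not follow RAB14. RAB11B, a main RAB of the recycling endosome, was at 87.5 ± 2.73 CPM in the control and 89.6 ± 5.37 CPM in the silenced cells (log2 fold change 0.04, adjusted p = 0.788). RAB35, which recycles cargo at the plasma membrane, was at 128 ± 9.78 and 126 ± 6.96 CPM (adjusted p = 0.929). Both pairs of groups overlapped. RAB4A, for fast recycling, had 24.3 ± 0.745 and 22.8 ± 1.94 CPM (adjusted p = 0.545), and RAB4B had 2.93 ± 0.323 and 3.83 ± 0.392 CPM (log2 fold change 0.39, SE 0.217, adjusted p = 0.241). The RAB4B groups did not overlap, but 64.4% of its transcript is also annotated in read-through genes. RAB11A was above its control range in each silenced library (59.0 ± 6.32 to 69.5 ± 7.80 CPM) and RAB15 was below it (2.67 ± 0.270 to 1.84 ± 0.462 CPM), and neither passed the test (adjusted p = 0.145 and 0.202). The nearest relatives of RAB14 outside this route, RAB2A and RAB2B of the ER and Golgi, are a further pair that did not pass. RAB2A was at 40.4 ± 2.99 and 44.0 ± 6.31 CPM (log2 fold change 0.12, adjusted p = 0.478), and its direction turned when silenced replicate 2 was left out. RAB2B was at 8.14 ± 0.403 and 6.72 ± 0.992 CPM (log2 fold change -0.28, adjusted p = 0.269).

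Among the RABs that take vesicles to the cell surface, RAB8B fell while RAB10 and RAB13 rose. These are 3 of 9 tested genes (33.3%, beside 17.0% of all genes). RAB8A and RAB8B both serve traffic from the Golgi and recycling tubules to the plasma membrane and the cilium. RAB8B had 8.02, 8.72 and 7.75 CPM in the control libraries and 5.96, 6.01 and 5.43 CPM in the silenced ones. These groups lay apart with a log2 fold change of -0.49 (SE 0.154), at an adjusted p of 0.0488 by edgeR. Leaving out a single library gave between 0.0678 and 0.137, and DESeq2 gave 0.123, so that the call was lost, while the log2 fold change stayed between -0.54 and -0.44 in the former. The gene is at chr15:63189469-63267782 of GRCh38, on the plus strand. Its 3′-UTR of 4163 bases also holds the word CCAATAA.

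RAB8A, the more abundant of the pair, had 105, 116 and 117 CPM in the control and 130, 115 and 123 CPM in the silenced libraries, which overlap (log2 fold change 0.12, SE 0.0787, adjusted p = 0.322). Per length, RAB8B made up 3.98% ± 0.298 of the RAB8 mRNA in the control cells and 2.64% ± 0.228 in the silenced ones. The sum of both overlapped between groups, at 41.6 ± 2.36 and 44.6 ± 2.67 CPM per kilobase. Of the RAB8A transcript of 2827 bases, 1018 lie opposite AC008894.2 and 207 overlap HSH2D on the same strand. RAB10, which brings glucose transporters and basolateral cargo to the surface, had 68.2, 67.5 and 69.4 CPM in the control and 85.0, 107 and 83.3 CPM in the silenced libraries. It rose in each of them, most in silenced replicate 2 (log2 fold change 0.43, SE 0.0996, adjusted p = 0.0153). RAB13, known from tight junctions, went from 61.8 ± 3.46 to 75.0 ± 6.71 CPM (adjusted p = 0.0474), but 54.2% of its transcript is shared with other annotated genes, chiefly AL358472.6 on the same strand. RAB27A, which docks secretory granules and exosome precursors, had a log2 fold change as large as that of RAB10 (0.43, SE 0.161), but its groups overlapped and it did not pass (adjusted p = 0.0915).

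On the route between ER and Golgi, 1 of 13 tested genes was called (7.69%, beside 17.0% of all genes). RAB30, a RAB of the Golgi, rose from 39.8 ± 4.45 to 51.7 ± 1.70 CPM (log2 fold change 0.37, SE 0.0915, adjusted p = 0.0187), and its silenced libraries with 51.9, 53.3 and 49.9 CPM lay above the control ones with 35.9, 44.7 and 39.0 CPM. RAB1B, which starts traffic out of the ER and was the most abundant RAB mRNA, was at 348 ± 31.1 and 298 ± 11.8 CPM. Its groups did not overlap (log2 fold change -0.22, SE 0.0781), and the adjusted p of 0.0748 missed the threshold. RAB34, second on this route, was at 134 ± 3.25 and 136 ± 2.72 CPM (adjusted p = 0.879).

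Of 13 tested endocytic RABs, 4 were higher and 1 was lower (38.5%, beside 17.0% of all genes). None of these 5 was called by edgeR when control replicate 3 or silenced replicate 1 was left out, and 2 or 3 were called when any other library was. On the early endosome, 6 of the 7 genes had a log2 fold change above 0, 5 of them with no overlap of the groups, where 19.1% of all genes lay above their control range, and the median was 0.21. RAB5A, which drives the fusion of early endosomes, had 45.9, 46.1 and 38.3 CPM in the control and 57.9, 59.8 and 53.5 CPM in the silenced libraries (log2 fold change 0.40, SE 0.0928, adjusted p = 0.0150). RAB21, which takes up integrins, rose from 30.3 ± 1.41 to 38.9 ± 4.16 CPM (log2 fold change 0.36, SE 0.0977, adjusted p = 0.0300), and part of its long transcript lies opposite the antisense gene AC089984.1, whose reads cannot be set apart if strand was not used. The other forms of RAB5 moved less. RAB5C, the most abundant, was at 182 ± 14.9 and 179 ± 5.77 CPM (log2 fold change -0.02, adjusted p = 0.865), with part of its transcript shared with AC099811.2. RAB5B was at 122 ± 3.34 and 133 ± 5.18 CPM (adjusted p = 0.255).

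On late endosomes and lysosomes the called genes went both ways. RAB7A, the RAB that takes late endosomes to lysosomes, had 260, 265 and 257 CPM in the control libraries and 222, 229 and 211 CPM in the silenced ones. The groups lay apart at a small fold (log2 fold change -0.24, SE 0.0661, adjusted p = 0.0310). RAB9A, which returns cargo from late endosomes to the trans-Golgi network, rose from 75.2 ± 5.06 to 92.4 ± 3.39 CPM (log2 fold change 0.30, SE 0.0782, adjusted p = 0.0246). RAB32, a RAB of lysosome-related organelles, rose from 40.7 ± 5.21 to 53.1 ± 7.31 CPM (log2 fold change 0.38, SE 0.117, adjusted p = 0.0466). Its lowest silenced library, at 48.4 CPM, was close to the highest control library, at 45.8 CPM.

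**Figure D3:**
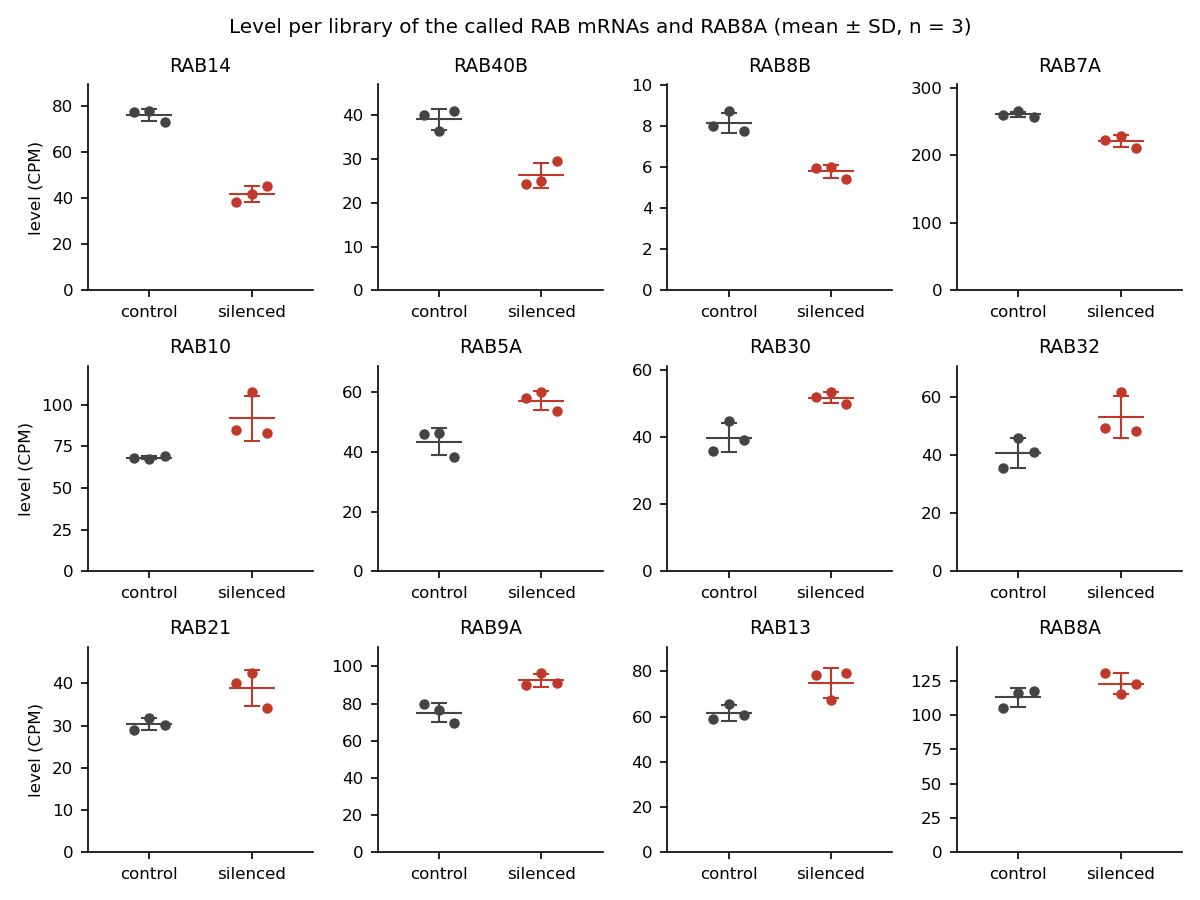
Level in CPM of the 11 called RAB mRNAs and of RAB8A in each library (points), with the mean and SD of each group (bars, n = 3). The groups overlap only for RAB8A, and RAB14 goes from 72.8 to 77.5 CPM in the control libraries down to 38.2 to 45.3 CPM in the silenced ones.

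Outside these routes, RAB40B fell, as 1 of 5 tested genes (20%, beside 17.0% of all genes). RAB40 proteins carry a SOCS box, through which they join a ubiquitin ligase. RAB40B had 40.0, 36.3 and 40.8 CPM in the control libraries and 24.2, 24.9 and 29.5 CPM in the silenced ones, with a wide gap between the groups (log2 fold change -0.57, SE 0.10, adjusted p = 0.00416). Its relative RAB40C was at 16.1 ± 1.44 and 16.6 ± 1.23 CPM (adjusted p = 0.809). RAB40B thus made up 63.1% ± 1.73 of the level per length of both in the control cells and 52.6% ± 2.91 in the silenced cells. Per kilobase, RAB42 came next to RAB40B in this group (6.48 and 10.1 CPM per kilobase in the control cells). Its length was taken as 857 bases, though its longest annotated 3′-UTR has 1326. In CPM, RAB42 was at 5.56 ± 1.0 and 6.23 ± 0.770 (adjusted p = 0.563).

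Within other families of close relatives, the share of each form is given as a description, for families chosen with these results known. RAB5A went from 12.7% ± 0.906 to 16.0% ± 0.947 of the summed RAB5 level per length, and RAB5C from 70.3% ± 1.05 to 66.3% ± 1.72. RAB1A went from 21.0% ± 2.10 to 25.2% ± 1.40 of RAB1, and RAB27A from 40.0% ± 5.11 to 49.6% ± 3.01 of RAB27. The groups of each of these shares did not overlap. Nor did those of RAB6A in RAB6 (87.2% and 90.2%), RAB2A in RAB2 (79.1% and 83.3%) and RAB4A in RAB4 (76.6% and 70.2%). Shares without overlap were thus common in these families, and how common they are in other gene families was not counted. The share of RAB11A in RAB11 did overlap, at 19.3% ± 2.13 and 21.6% ± 2.86, as did that of RAB5B in RAB5. With 3 libraries against 3, an exact permutation test of a share cannot go below p = 0.1, and none was run.

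The 12 RAB genes without a test were nearly silent in these cells. RAB19, RAB25, RAB39A, RAB39B, RAB3C, RAB41 and RAB9B had 0 counts in all 6 libraries, and a count of 0 allows up to 0.169 to 0.308 CPM, depending on the library and for counting error only. RAB25 is the epithelial form of RAB11. RAB37 had 26 counts over all libraries and RAB3B 14, and RAB33A, RAB44 and RAB40A had 4, 2 and 1. No change could be detected at this depth for any of them.

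How far the calls depend on single libraries differed between the genes. RAB14 and RAB40B kept an adjusted p under 0.05 in each of the 14 other analyses, with at most 0.00183 and 0.0270. Without control replicate 3, the library with the high ribosomal share, RAB14, RAB40B and RAB10 were called, 3 of the 11, which is 6.25% of the RAB genes beside 12.4% of all genes in that fit. The same 3 were called without silenced replicate 1, beside 7.87% of all genes. The number was 5 without control replicate 1 or 2 (10.4%, beside 11.7% and 11.4% of all genes), and 7 without silenced replicate 2 or 3 (14.6%, beside 12% and 12.7%). RAB8B was lost in each of these.

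**Figure D4:**
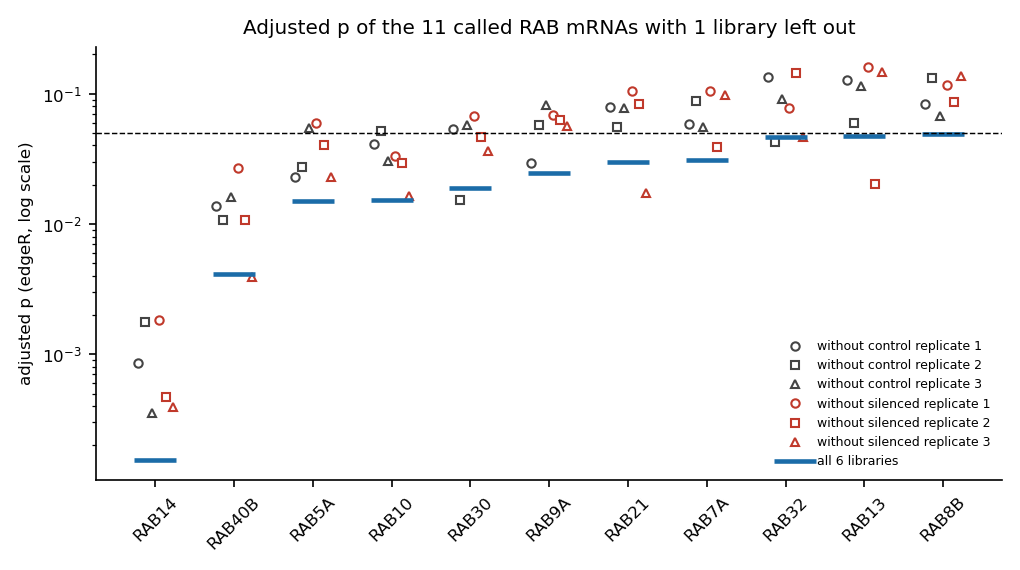
Adjusted p (edgeR, log scale) of the 11 called RAB mRNAs with all 6 libraries (blue bars) and with 1 library left out (open symbols, black for control and red for silenced), and the threshold of 0.05 as a dashed line. Each symbol of RAB14 and RAB40B lies under the line, and for RAB8B each open symbol lies above it.

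Of 124 genes listed for the RAB machinery, 116 were tested and 26 were called (22.4%, beside 17.0% of all genes), with 19 higher and 7 lower and a median log2 fold change of 0.10. Without control replicate 3, 18 were called, beside 12.4% of all genes in that fit. Without any other library the number was 13 to 17, beside 7.87% to 12.7% of all genes. Among the 8 genes for lipid anchoring and membrane extraction, RABGGTA and RABIF fell (25%, beside 17.0% of all genes). RABGGTA, the alpha subunit of the enzyme that adds the lipids, went from 36.2 ± 3.38 to 29.1 ± 0.817 CPM (log2 fold change -0.32, adjusted p = 0.0390). RABIF, which holds RABs that have lost their nucleotide, went from 25.0 ± 1.32 to 19.98 ± 0.142 CPM (adjusted p = 0.0368). The escort protein genes CHM and CHML did not pass (log2 fold changes 0.23 and -0.11, adjusted p = 0.157 and 0.469), nor did GDI2, a dissociation inhibitor at 140 ± 8.74 CPM in the control cells (log2 fold change -0.05, adjusted p = 0.740). The sign for GDI2 turned without silenced replicate 3.

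Of 31 tested exchange factors, 5 were called by edgeR, each of them higher (16.1%, beside 17.0% of all genes). These were RABGEF1, DENND3, DENND4A, DENND4C and SBF2, named after their values had been seen, and DENND4C, an exchange factor for RAB10, had the largest log2 fold change of them at 0.50 (adjusted p = 0.00434). Of 34 GTPase-activating proteins, 6 were higher and 2 lower (23.5% called, beside 17.0% of all genes). Both lower ones changed more than 1.5-fold. TBC1D7, which is also the third subunit of the TSC complex, went from 17.5 ± 1.77 to 9.36 ± 0.341 CPM, with no overlap (log2 fold change -0.91, SE 0.123, adjusted p = 0.00106). SGSM2 went from 75.2 ± 7.78 to 49.4 ± 5.23 CPM (log2 fold change -0.61, adjusted p = 0.00310). Both kept their calls in each of the 14 other analyses.

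Of 43 tested effectors, 8 were higher and 3 lower (25.6% called, beside 17.0% of all genes). MICAL1, an actin-oxidizing enzyme that RABs recruit, had 18.1, 18.2 and 18.7 CPM in the control and 30.9, 27.4 and 30.3 CPM in the silenced libraries, with a wide gap between the groups (log2 fold change 0.68, SE 0.0939, adjusted p = 0.00112). SYTL3, an effector of RAB27, had only 1.85 ± 0.658 and 3.78 ± 0.164 CPM (log2 fold change 0.99, adjusted p = 0.0327), and its call was lost without any 1 library other than control replicate 3 (adjusted p between 0.0687 and 0.0823). Picked after their values were seen, RAB11FIP1, an effector of RAB11, rose from 48.5 ± 2.21 to 70.1 ± 1.81 CPM (adjusted p = 0.00122), and BICD2, which links RAB6 vesicles to dynein, fell from 55.8 ± 1.46 to 43.6 ± 1.21 CPM (adjusted p = 0.00889).

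Sequences of both kinds were read in the annotated UTRs, on the mRNA strand only. An earlier analysis of these same counts had found that mRNAs with the word CCAATAA in the 3′-UTR were lower after silencing, so that its presence is only described here. It was in a 3′-UTR of 12 of the 48 tested RAB mRNAs (25.0%) and of 12.7% of 11525 tested mRNAs. The longest 3′-UTRs of RAB genes are long, with a median of 2125.5 bases beside 1366 bases, and of mRNAs within 20% of the same lengths, 15% held it. The median log2 fold change was -0.19 over the 12 holders, 8 of which were below 0, and 0.11 over the 36 others, 11 of which were below 0. For all mRNAs the medians were -0.08 and 0.01. RAB14, RAB8B and RAB7A hold it and fell, RAB40B fell and lacks it, and RAB21 holds it at 2 places and rose. Of the RAB holders 25.0% were called lower, beside 21.9% of all tested mRNAs that hold it. Without the word it was 2.78% of RAB mRNAs and 7.32% of all.

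**Figure D5:**
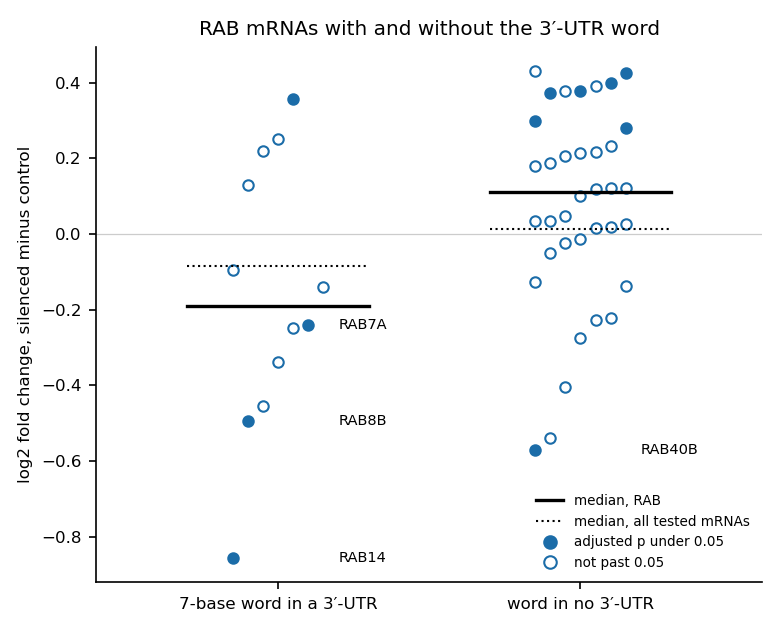
Log2 fold change (silenced minus control) of the 48 tested RAB mRNAs with the 7-base word in a 3′-UTR (left, 12 mRNAs) and without it (right, 36 mRNAs). Solid lines are RAB medians of -0.19 and 0.11, and dotted lines are medians of all tested mRNAs of -0.08 and 0.01.

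The sites differ in where they lie and in whether the next base completes the poly(A) signal AATAAA. In RAB7A the word begins at base 1350 of a 3′-UTR of 1374 bases and holds that signal 18 bases before the annotated end of the transcript, where a poly(A) signal is usual. In RAB14 it begins at base 415 and is followed by a G. The following sites show the same word in RAB mRNAs that fell (RAB7A), rose (RAB21) or did not pass the test (RAB4A and RAB33B):
RAB7A, chr3:128814772-128814778, plus strand: tgaacgcaatgCCAATAAaattgaacaag
RAB4A, chr1:229305479-229305485, plus strand: gcatcctttggCCAATAAaagttgctgga
RAB21, first site, chr12:71797560-71797566, plus strand: tgaatgcaatcCCAATAAaaatataagga
RAB21, second site, chr12:71797714-71797720, plus strand: acaagagagctCCAATAAttaaaacagtc
RAB33B, chr4:139474460-139474466, plus strand: ttccttcaactCCAATAAatttaatgact
RAB33B, a Golgi RAB, had 5.97 ± 1.12 and 4.30 ± 0.290 CPM with groups that did not overlap, and did not pass (log2 fold change -0.46, adjusted p = 0.149). The RAB21 sites begin at bases 11887 and 12041 of a 3′-UTR of 14612 bases.

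The core of the HNRNPK sequence was searched as CCACCC, the same word ending in A, or either of them with T as second base. With any annotated transcript counted, it was in a 5′-UTR of 21 of the 48 RAB mRNAs (43.8%) and of 42.0% of 11475 tested mRNAs. For RAB26, RAB2A, RAB30, RAB40B, RAB43 and RAB6B it was only in transcripts other than the principal one. The median log2 fold change was 0.05 over RAB mRNAs with it and 0.02 over those without it, and 2 of the 4 lower RAB mRNAs, RAB14 and RAB40B, hold it, the latter in a transcript other than its principal one. RAB8B has no match in its annotated 5′-UTRs. The paper differs here: it reports HNRNPK motifs for RAB8B as well as RAB14, in segments predicted to be ribosome entry sites. It also recovered each mRNA with an antibody against HNRNPK. In its luciferase reporter assays, overexpressed HNRNPK raised the activity of the wild-type 5′-UTRs of both genes but not of mutated ones. The reason why no match was found here for RAB8B was not tested. By qRT-PCR the paper found neither mRNA regulated by FAM83H-AS1 and reports a change in protein only, whereas RAB14 mRNA was lower in these counts. From its RNA-Seq the paper reports no significant change for its top-ranked proteins, which its text does not list. Its rule for calling a gene includes a minimum fold change. RAB14 fell less than 2-fold in these counts (log2 fold change -0.86), and a minimum of 2-fold would leave it uncalled. A match only says that these letters are in the annotated UTR, and counts of mRNA do not measure translation.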

How the data were processed

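RNA was sequenced on an Ion Proton in 3 control and 3 FAM83H-AS1-silenced libraries of cells labelled A549. Reads were mapped and assigned to genes by the authors with MapSplice, and the deposited table gives these counts as whole numbers, not normalized. The submitters' processing notes name GRCh37, and the use of strand and of reads with several matches is not given in the sources used here. The groups were compared with edgeR 4.0.16 (R 4.3.3: filterByExpr, TMM, quasi-likelihood F test, no covariate), with Benjamini-Hochberg adjustment over 15250 genes. DESeq2 1.42.0 was an alternative. Standard errors were derived from the log2 fold change and F. The fit was tested on simulated data. GENCODE 29 (GRCh38) gave locations, lengths and UTRs, and all 60 RAB symbols matched. Differences within a gene are in CPM, and levels between genes are per kilobase.

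Members, routes, lists and tests were chosen with earlier results of these data known. Genes were named by a rule: FAM83H-AS1, RAB8B, RAB14 and their relatives, every called RAB gene, the 2 highest per route by level per length, untested RAB genes by counts, machinery genes past 1.5-fold, and genes for escort and membrane extraction, of which 1 is not reported here. Others are said to be chosen after their values were seen or stand beside a relative or in a count. The labels give no shared batch, so that no block was used in the main fit. Correlations of deviations were 0.124, 0.149 and 0.067 for libraries of equal replicate number and -0.112 to 0.0182 for the other pairs. Whether equal numbers pair the libraries is therefore not settled. Replicate numbers are those of the deposited table, and the numbering of the silenced libraries differs in the paper's supplement. This bears on the pairs by number, on the fit with a block and on each silenced replicate named.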

Additional observations from a re-analysis of the deposited data

How the results depend on the processing

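RAB14, RAB40B and FAM83H-AS1 kept direction and call in each alternative run, RAB14 with log2 fold changes from -0.92 to -0.80. At an adjusted p under 0.01, 2 RAB mRNAs were called, 2 lower and 0 higher, and 12 machinery genes. The share of all genes at that threshold was not counted. With library size only, 9 RAB mRNAs were called (18.8%, beside 16.7% of all genes), 2 of them lower. The median log2 fold change of RAB mRNAs was then 0.0778, and it was 0.0704 with counts thinned to the smallest library. RAB8B lost its call with DESeq2 (-0.50, adjusted p = 0.123), library size only (-0.46, adjusted p = 0.0748) and all genes with at least 1 count (-0.50, adjusted p = 0.0698). With 1 library left out, 3 to 7 RAB mRNAs were called, 2 to 3 lower and 1 to 5 higher. Machinery genes called were 13 to 18, and the share of all genes called was 7.87% to 12.7%. The median log2 fold change of RAB mRNAs was 0.0296 to 0.0753, and RAB8B was between -0.54 and -0.44. RAB2A then ranged from -0.000908 (reversed, without silenced replicate 2) to 0.202, and GDI2 from -0.119 to 0.00563 (reversed, without silenced replicate 3). These fits have fewer samples, and other causes were not tested. With the replicate number as a block, 13 RAB mRNAs were called (27.1%, beside 22.6% of all genes), with RAB1B and RAB27A added and none lost. No 2 libraries of a group agreed within counting noise. RAB8B had 61 to 131 counts in a library, the part of which in its lost calls was not tested.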

Other observations

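Of 24 tested genes of the ARF family, small GTPases that recruit coats to membranes, 5 were higher and 1 was lower (25%, beside 17.0% of all genes). The lower one was TRIM23, an ARF protein fused to a ubiquitin ligase, which went from 9.51 ± 1.38 to 6.08 ± 0.722 CPM (SD, n = 3, log2 fold change -0.64, edgeR, adjusted p = 0.0250). TRIM23 was picked after its values had been seen, and the family was not tested against the RAB genes.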
